A study of Rattus norvegicus with 18 samples.

Results

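Ret, the receptor tyrosine kinase of the glial cell line-derived neurotrophic factor (GDNF) family, was followed with its co-receptors Gfra4, Gfra1, Gfra2 and Gfra3 and the ligands Gdnf and Nrtn in 18 rat medullary thyroid carcinomas. The genes were taken by the gene symbols of the array's annotation, with the probe set of the highest mean for each. All 7 were found among 14506 genes, each with 1 probe set, and all 7 lay above the filter on low values (a mean log2 value of 6.32) that left 11370 genes for testing. The tumours came from untreated rats of the MENX model, on a mixed Sprague–Dawley white eye/Wistar–Kyoto background, kept under specific pathogen-free conditions. In every animal Cdkn1b, which encodes the cell cycle inhibitor p27Kip1, was mutated. Both copies were mutated in 6 rats aged 9 months, and 1 copy in 6 rats aged 9 months and in 6 aged 18 months. Neither wild-type rats nor normal thyroid was among the samples. The study compared both genotypes, and both ages of the heterozygotes.

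Ret does not bind its ligands alone. A ligand of the family first binds a co-receptor that a lipid anchor holds on the membrane, and this complex brings Ret molecules together so that their kinase domains phosphorylate each other. Gfra1 prefers Gdnf, Gfra2 prefers neurturin (Nrtn), Gfra3 prefers artemin (Artn) and Gfra4 prefers persephin (Pspn). C cells, the calcitonin-producing cells of the thyroid from which medullary carcinoma arises, express Ret and Gfra4, and activating mutations of RET cause the hereditary form of this carcinoma in humans.

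RefSeq's table of promoters (GRCr8) held 6 of the 7 genes, all but Gfra2. The 250 bases before the start site are shown for Ret and Gfra4, which varied together among the tumours, and for Gfra1 and Gfra3, which did so as well and were lower at 18 months. Capitals mark the GC box GGGCGG, on either strand.
Ret, chr4:153040557-153040806, minus strand: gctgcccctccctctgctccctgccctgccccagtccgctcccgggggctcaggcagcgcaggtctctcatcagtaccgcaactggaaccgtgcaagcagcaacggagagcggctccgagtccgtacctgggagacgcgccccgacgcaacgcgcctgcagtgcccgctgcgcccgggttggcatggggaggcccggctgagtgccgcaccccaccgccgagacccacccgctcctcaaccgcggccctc
Gfra4, chr3:138710957-138711206, minus strand: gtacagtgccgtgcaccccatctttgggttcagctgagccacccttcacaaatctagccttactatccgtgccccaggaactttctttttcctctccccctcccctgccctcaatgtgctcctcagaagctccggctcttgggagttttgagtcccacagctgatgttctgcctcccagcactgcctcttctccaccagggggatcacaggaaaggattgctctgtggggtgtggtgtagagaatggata
Gfra1, chr1:267555812-267556061, minus strand: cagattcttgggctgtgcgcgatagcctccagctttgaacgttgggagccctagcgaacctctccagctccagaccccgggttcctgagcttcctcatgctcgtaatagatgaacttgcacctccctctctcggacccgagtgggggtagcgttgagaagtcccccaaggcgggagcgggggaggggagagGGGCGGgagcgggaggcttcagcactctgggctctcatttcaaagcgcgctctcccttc
Gfra3, chr18:26600226-26600475, minus strand: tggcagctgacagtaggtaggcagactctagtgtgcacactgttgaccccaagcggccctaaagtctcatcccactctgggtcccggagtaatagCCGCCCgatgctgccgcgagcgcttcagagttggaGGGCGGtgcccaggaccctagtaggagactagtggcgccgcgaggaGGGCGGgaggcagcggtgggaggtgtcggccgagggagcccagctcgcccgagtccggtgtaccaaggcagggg
The 250 bases of Ret were 72.8% G or C and those of Gfra4 55.2%, against a median of 51.2% over 33469 promoters. Gfra1 held 1 GC box, 59 bases before the start, and Gfra3 held 3, at 155, 120 and 74 bases before it. A GC box occurred in 30.5% of all promoters of this length. Neither Ret nor Gfra4 held a GC box, and all 4 lacked the TATA box TATAAA, the CCAAT box, the E box CACGTG and the cAMP response element TGACGTCA, searched on both strands. These motifs occurred in 12.9%, 34.0%, 5.59% and 1.59% of all promoters. Of the ligands, Gdnf had a TATAAA motif 30 bases before its start and Nrtn held none of these motifs.

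Expression was read as log2 values, on which a difference of 1 is a doubling, and array medians ran from 7.55 to 7.65. A level is that of a gene's own probe set, so levels of different genes were not compared. Each array has an animal code of its own in the labels, and SDs are over animals. Calca, the calcitonin gene, measured 13.75 to 14.12 over all tumours. It marks C cells, and without normal thyroid among the samples it could not test the label of carcinoma. Thyroglobulin (Tg), the product of the follicular cells around the C cells, was also high, between 14.18 and 14.37 in both 9-month groups and between 11.08 and 14.34 at 18 months. The highest value of an array was 14.46 on average, so Calca and the highest values of Tg lay near the top of the scale. In such mixed tissue fewer cells of a type and less RNA per cell cannot be told apart.

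The receptor itself differed between the 3 groups by less than its spread within them. In homozygous tumours at 9 months Ret ran from 11.03 over a median of 11.14 to 11.36. In heterozygous tumours it ran from 10.88 over 11.04 to 11.40 at 9 months, and from 10.80 over 11.10 to 11.48 at 18 months. The 3 groups overlapped along nearly their whole range, and the spread was widest at 18 months. Group means were 11.16 ± 0.11, 11.07 ± 0.19 and 11.13 ± 0.25 (SD, n = 6 each).

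No difference of Ret passed the test in any comparison. Homozygous minus heterozygous tumours at 9 months gave 0.09 (SE 0.11, 95% interval -0.14 to 0.32, limma adjusted p = 0.811). Heterozygous tumours at 18 minus 9 months gave 0.06 (SE 0.11, interval -0.17 to 0.29, limma adjusted p = 0.676). The third comparison, homozygous at 9 minus heterozygous at 18 months, shares arrays with both others, and gave 0.03 (SE 0.11, interval -0.20 to 0.26, limma adjusted p = 0.86). All 3 intervals lie within a log2 difference of 0.32 in size. The sign of the age difference was not stable: without replicate 5 of the 18-month group it was -0.01.

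**Figure D1:**
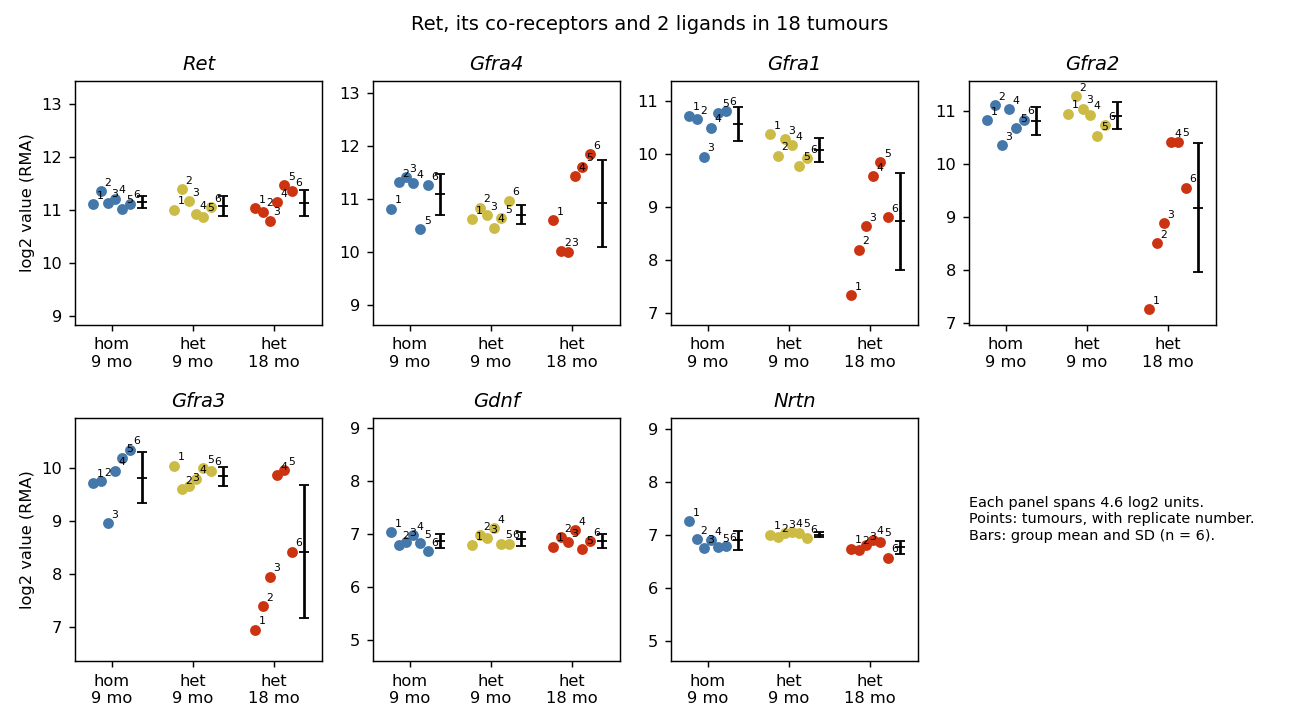
Log2 values of Ret, its 4 co-receptors and 2 ligands in each tumour, by group, with the group mean and SD beside the points; the number at each point is the replicate. Ret, Gdnf and Nrtn stay within a narrow band, Gfra4 spreads from 10.01 to 11.85 at 18 months, and Gfra1, Gfra2 and Gfra3 spread furthest at 18 months, with replicates 4 and 5 highest.

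Gfra4, the co-receptor of C cells, varied more than Ret among homozygous tumours and among those of 18 months, but not among heterozygous tumours of 9 months, and no difference of its group means passed the test. It ran from 10.43 over 11.28 to 11.41 in homozygous tumours and from 10.46 over 10.67 to 10.97 in heterozygous tumours at 9 months. At 18 months it split into low and high tumours: replicates 1, 2 and 3 measured 10.60, 10.01 and 10.01, and replicates 4, 5 and 6 measured 11.43, 11.61 and 11.85. The heterozygous tumours of 9 months lay between these sets, apart from an overlap with replicate 1. Means were 11.09 ± 0.38, 10.70 ± 0.18 and 10.92 ± 0.82 (SD, n = 6 each).

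In homozygous tumours 4 of 6 values of Gfra4 exceeded all heterozygous ones of 9 months and 1, replicate 5, lay below all of them. The difference of 0.38 (SE 0.29, interval -0.22 to 0.99) did not pass the test (limma adjusted p = 0.686). The age difference was 0.21 (SE 0.29, interval -0.39 to 0.82, limma adjusted p = 0.576), with 3 older tumours above and 2 below every younger one. Homozygous tumours differed from those of 18 months by 0.17 (SE 0.29, limma adjusted p = 0.691). The interval of the age difference is wide, and leaving out replicate 6 or replicate 3 of the 18-month group moved it to 0.03 or 0.40.

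Gfra1, the preferred co-receptor of Gdnf, was lower in heterozygous tumours at 18 months than in those of 9 months. It ran from 9.95 over 10.69 to 10.82 in homozygous and from 9.78 over 10.07 to 10.38 in heterozygous tumours at 9 months. The 18-month tumours measured 7.34, 8.20, 8.64, 9.58, 9.85 and 8.81 in replicates 1 to 6. Only replicate 5 reached the range of the younger heterozygous tumours, and the other 5 lay below all of them. Means were 10.57 ± 0.33, 10.08 ± 0.23 and 8.73 ± 0.92 (SD, n = 6 each). Gfra1 fell by 1.35 on the log2 scale with age (SE 0.31, limma adjusted p = 0.00281), a level 2.55-fold lower. Homozygous tumours lay 1.84 above those of 18 months (SE 0.31, limma adjusted p = 0.00435), with no overlap. Between genotypes at 9 months the difference was 0.49 (SE 0.31, interval -0.17 to 1.15, limma adjusted p = 0.649), although 5 of 6 homozygous tumours lay above every heterozygous one. This difference was 0.65 with the mean of follicular marker genes, described further on, as a covariate (limma adjusted p = 0.0586) and 0.95 with the mean of C cell genes (limma adjusted p = 0.306).

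Gfra2, the preferred co-receptor of neurturin, was lower in every 18-month tumour than in any heterozygous tumour of 9 months. It ran from 10.36 over 10.83 to 11.10 in homozygous and from 10.54 over 10.94 to 11.27 in heterozygous tumours at 9 months. At 18 months replicates 1 to 6 measured 7.26, 8.51, 8.88, 10.41, 10.42 and 9.55. Replicates 4 and 5 came close to the younger heterozygous tumours and lay above 1 homozygous tumour, replicate 3. Means were 10.81 ± 0.27, 10.91 ± 0.25 and 9.17 ± 1.22 (SD, n = 6 each). Gfra2 fell by 1.74 with age (SE 0.40, limma adjusted p = 0.00257), a level 3.34-fold lower. Homozygous tumours lay 1.64 above those of 18 months (SE 0.40, limma adjusted p = 0.0105), a call that was lost with only these groups in the fit (limma adjusted p = 0.0529). The genotypes differed by -0.11 at 9 months (SE 0.40, interval -0.94 to 0.73, limma adjusted p = 0.946).

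Gfra3, the co-receptor of artemin, was lower in 4 of the 6 tumours of 18 months than in every younger heterozygous tumour. It ran from 8.96 over 9.86 to 10.36 in homozygous and from 9.61 over 9.88 to 10.05 in heterozygous tumours at 9 months. At 18 months replicates 1, 2, 3 and 6 measured 6.96, 7.40, 7.95 and 8.42, and replicates 4 and 5 measured 9.87 and 9.96, inside the range of the younger group. Means were 9.83 ± 0.49, 9.85 ± 0.19 and 8.43 ± 1.26 (SD, n = 6 each). Gfra3 fell by 1.42 with age (SE 0.42, limma adjusted p = 0.0124), a level 2.67-fold lower. Homozygous tumours lay 1.40 above those of 18 months (SE 0.42, limma adjusted p = 0.0219). This call was lost without homozygous replicate 6 (1.29) or without replicate 1, 2 or 3 of the 18-month group (1.10, 1.19 and 1.304), with limma adjusted p-values of 0.0506 to 0.0585, and with only these groups in the fit (limma adjusted p = 0.0747). The genotypes differed by -0.02 at 9 months (SE 0.42, interval -0.91 to 0.87, limma adjusted p = 0.991).

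The ligand Gdnf showed no difference past the test. Its values lay below the array median on all 18 arrays, and the values used here carry no call of whether a probe set was detected. It ran from 6.68 over 6.84 to 7.04 in homozygous tumours, from 6.79 over 6.87 to 7.12 in heterozygous tumours at 9 months and from 6.72 over 6.86 to 7.08 at 18 months. The groups overlapped throughout, with means of 6.87 ± 0.13, 6.91 ± 0.13 and 6.87 ± 0.13 (SD, n = 6 each). The differences were -0.04 between genotypes, -0.04 with age and -0.0043 in the third comparison (SE 0.08 each), with limma adjusted p-values of 0.878, 0.705 and 0.974.

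Nrtn, the gene of neurturin, was slightly lower at 18 months and also lay below the array median on all 18 arrays. It ran from 6.76 over 6.84 to 7.26 in homozygous tumours. In heterozygous tumours it ran from 6.94 over 7.02 to 7.05 at 9 months and from 6.57 over 6.77 to 6.91 at 18 months. The heterozygous groups did not overlap, and their nearest tumours measured 6.94 and 6.91. Means were 6.90 ± 0.19, 7.004 ± 0.05 and 6.77 ± 0.12 (SD, n = 6 each). Nrtn fell by 0.23 with age (SE 0.08, limma adjusted p = 0.0235). Without replicate 6 of the 18-month group the difference was -0.19 and missed the threshold (limma adjusted p = 0.0589). Between genotypes 5 of 6 homozygous tumours lay below every heterozygous one and replicate 1 lay above all of them, a difference of -0.11 (SE 0.08, limma adjusted p = 0.683). The third comparison gave 0.13 (SE 0.08, limma adjusted p = 0.236).

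**Figure D2:**
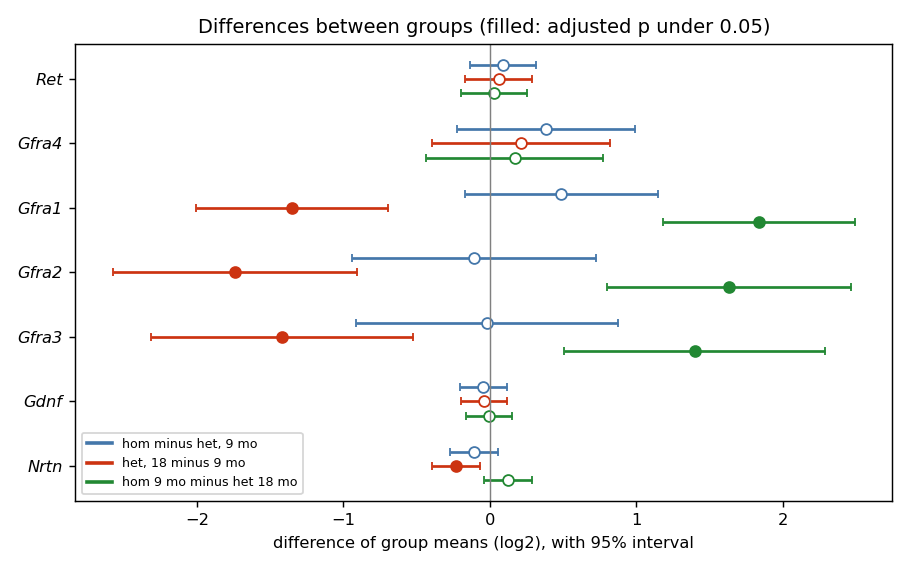
Differences of group means in log2 units with 95% intervals from limma, for each gene and comparison; filled points have an adjusted p under 0.05. Filled points are the falls of Gfra1, Gfra2, Gfra3 and Nrtn with age and the higher Gfra1, Gfra2 and Gfra3 of homozygous tumours against 18 months, while all intervals of Ret, Gfra4 and Gdnf span 0.

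By count, 4 of the 7 genes were called with age, all lower at 18 months. Over all genes 44.1% were called in that comparison and 22.4% were called lower, and 4.14% were called lower by a log2 value of at least 1, as Gfra1, Gfra2 and Gfra3 were. The heterozygous groups did not overlap for 2 of the 7, Gfra2 and Nrtn, against 18.1% of all genes. The median difference of the 7 was -0.23, against -0.0045 over all genes tested. Between genotypes at 9 months limma called 0 of the 7 and also 0% of all genes, with 995 genes (8.75%) and 0 of the 7 at an unadjusted p under 0.05. No gene of the 7 separated the genotypes without overlap, against 1.57% of all genes. In the third comparison 3 of the 7 were called, all higher in homozygous tumours, where 29.8% of all genes were called and 16.2% were called higher. Gfra1 alone of the 7 had no overlap there, against 2.25% of all genes.

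Whether the co-receptors changed apart from Ret was tested on the difference between each gene and Ret within a tumour, by exact permutation of 6 against 6 tumours. This test was chosen after the values had been seen, and its smallest possible p is 0.00216. From 9 to 18 months Gfra1 changed by -1.41 relative to Ret and Gfra2 by -1.80, each with an exact two-sided p = 0.00216 (0.013 after Benjamini-Hochberg adjustment over 18 such tests). Gfra3 changed by -1.48 relative to Ret and missed the threshold after adjustment (exact p = 0.0152, adjusted 0.0545). Gfra4 changed by 0.15 relative to Ret (exact p = 0.554), Gdnf by -0.10 (exact p = 0.532) and Nrtn by -0.29 (exact p = 0.0844). Relative to Gfra4 in place of Ret, the changes of Gfra1, Gfra2 and Gfra3 were -1.57, -1.96 and -1.63, each with an exact p = 0.00216 (0.00649 adjusted over 9 tests). This contrast with Gfra4 was also chosen after the values had been seen. Its p-values therefore describe the same values that prompted it and are no independent test.

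Among tumours of the same group, Ret and Gfra4 varied together. Over 18 tumours, as deviations from the group means, Pearson's r was 0.76 (permutation p = 0.00085, 0.0051 after adjustment over 6 relations). The rank correlation rho was 0.80 (permutation p = 0.0008, adjusted 0.00405). For each rho over 18 tumours, the deviations were ranked over all tumours and the ranks were centred by group again. Without replicates 5 and 3 of the 18-month group, the tumours farthest from the median of Ret, r was 0.65. Within groups r was 0.68 in homozygous tumours (exact permutation p = 0.143, n = 6). In heterozygous tumours it was 0.56 at the younger and 0.91 at the older age (exact permutation p of 0.237 and 0.0125, n = 6 each). At 18 months replicates 5 and 6 had the highest values of both genes and replicates 2 and 3 the lowest. All arrays share the same scaling of their values, and median centring gave the relation the same direction and the same side of the threshold. As array medians ran only from 7.55 to 7.65, this centring could move the values little. Whether the shared scaling has a part in the relation was not tested.

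**Figure D3:**
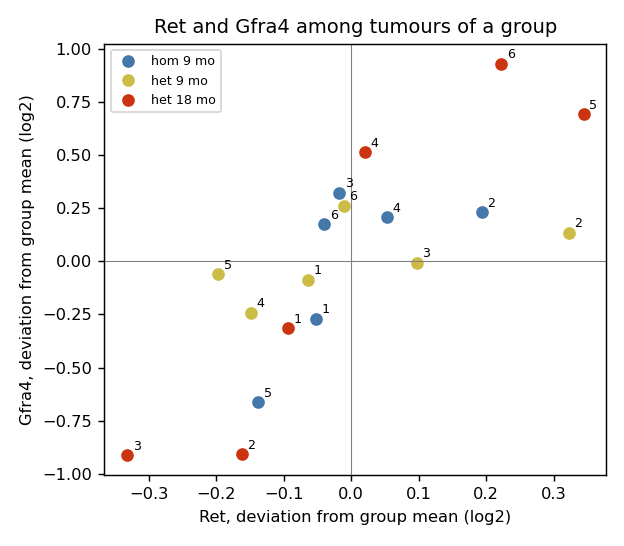
Deviation of Gfra4 from its group mean against that of Ret, in log2 units, for each tumour, coloured by group and numbered by replicate. The tumours run from the lower left to the upper right (r = 0.76 over 18 tumours), and the 18-month tumours span the most on both axes.

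Ret was less clearly related to the other genes. With Gfra2 the rho of 0.81 passed the threshold (permutation p = 0.00135, adjusted 0.00405) and the r of 0.57 did not (permutation p = 0.0654, adjusted 0.196), and r was 0.48 without the same 2 tumours. With Gfra1 and Gfra3 r was 0.39 and 0.36, and with Gdnf and Nrtn -0.07 and -0.06 (permutation p of 0.249 to 0.819). Of 11369 other genes tested, Gfra4 ranked 20 in likeness to Ret by r, and Ret ranked 74 in likeness to Gfra4. The 5 genes most like Ret, with the 7 left out, were Crtac1 (r = 0.84), Brinp2 (0.84), Syt17 (0.83), Gh1 (0.82) and Hspbap1 (0.82). Group means of Brinp2 (6.99 to 7.24) and Gh1 (7.13 to 7.42) lay below the array medians, and those of Crtac1, Syt17 and Hspbap1 above them. Brinp2 had r of 0.345 in homozygous tumours, and 0.96 and 0.92 in the younger and older heterozygous ones. The genes most like Gfra4 were Gcgr, the glucagon receptor (r = 0.96), the homeobox gene Hoxb8 (0.94), Cnpy1 (0.94), the sialyltransferase gene St8sia5 (0.93) and Abtb2 (0.90). They are the extremes of 11363 genes searched over 18 tumours, so their r values are a description.

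Gfra1, Gfra2 and Gfra3 varied together, and this was looked at after their values had been seen. Over 18 tumours r of the deviations was 0.93 for Gfra1 with Gfra2, 0.92 for Gfra1 with Gfra3 and 0.87 for Gfra2 with Gfra3 (permutation p of 0.00012, 0.00016 and 0.00179, adjusted over 6 pairs to 0.00048, 0.00048 and 0.00358). Their rho values were 0.70, 0.76 and 0.57 (permutation p of 0.00787, 0.00214 and 0.0634, the last 0.0951 after adjustment). Without replicates 1 and 2 of the 18-month group r was 0.80, 0.86 and 0.75. In the 18-month group all 3 genes put the tumours in the same order, replicate 1 lowest, then 2, 3, 6, 4 and 5. Within the 18-month group r of these pairs was 0.99, 0.97 and 0.96 (exact permutation p = 0.00139 each, n = 6). It was 0.62, 0.90 and 0.55 in homozygous tumours (exact permutation p of 0.201, 0.0319 and 0.257, n = 6) and 0.47, -0.07 and -0.77 in heterozygous tumours at 9 months (exact permutation p of 0.349, 0.894 and 0.0778, n = 6). These p-values within groups are not adjusted. Pairs of Gfra4 with these genes had r of 0.41 to 0.58 and did not pass (permutation p of 0.143 to 0.313).

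Means of follicular and endothelial marker genes moved with Gfra1, Gfra2 and Gfra3, and that of C cell genes moved against them. The mean of 10 measured follicular genes (of 12 listed) ran from 10.25 to 11.21 in homozygous tumours and from 11.16 to 11.26 in heterozygous tumours at 9 months. At 18 months it was 7.32, 9.47, 9.14, 11.06, 10.77 and 9.59 in replicates 1 to 6, so replicates 4 and 5, the highest of this group for Gfra1, Gfra2 and Gfra3, were also highest for the follicular genes. Homozygous replicate 3, lowest of its group for Gfra1, Gfra2 and Gfra3, was also lowest for the follicular genes. The mean of 6 endothelial genes (of 6) ran from 9.19 to 10.07, from 9.96 to 10.23 and from 7.83 to 9.88 in the 3 groups. For 13 C cell genes (of 15) the ranges were 10.81 to 12.17, 10.19 to 11.11 and 11.07 to 12.52, and for 10 Schwann cell and nerve genes (of 12) 6.99 to 7.28, 7.10 to 7.31 and 6.69 to 7.14. Of these 10 only 7 reached the filter. Erbb3, also among the receptor tyrosine kinases, went from a mean of 9.07 to 7.76 with age in heterozygous tumours. Sox10 went from 7.69 to 7.51 and Mbp from 9.33 to 9.55, so the list did not move as 1. Adipocyte genes (5 of 5) had means of 8.12 to 9.24, 8.27 to 9.67 and 7.38 to 8.64, and all 5 fell with age, with a median of -0.90. Replicate 4 was the highest of the 18-month group for them too. Of the tested genes, 8 of 9 follicular, 6 of 6 endothelial and 3 of 7 Schwann cell and nerve genes fell with age. Of 13 C cell genes 10 rose. Over all genes 22.4% fell and 21.6% rose. The 3 parathyroid genes had means of 9.15 to 12.86, 9.87 to 12.81 and 8.53 to 12.87, and with age 1 rose and 1 fell, with a median of -2.58. As deviations from group means, the parathyroid mean had r of 0.17, 0.18 and 0.37 with Gfra1, Gfra2 and Gfra3. None of these passed (permutation p of 0.601, 0.604 and 0.242). No correlation was computed for the adipocyte mean. RMA values have no 0. Of the defining markers, Tg stayed at 11.08 or more in every tumour, and the follicular genes Pax8 and Iyd reached 7.60 and 6.76 in the lowest 18-month tumour.

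Deviations of Gfra1, Gfra2 and Gfra3 correlated with those of the follicular mean at r = 0.93, 0.93 and 0.89 over 18 tumours (permutation p of 0.00115, 0.00116 and 0.0012, each 0.0084 after adjustment over 35 relations, rho of 0.82, 0.76 and 0.75). Without the 2 tumours farthest from the median r was 0.89, 0.82 and 0.91. In heterozygous tumours at 9 months alone r was 0.32, 0.59 and -0.08, where the follicular mean itself spanned little. With the C cell mean r was -0.69, -0.60 and -0.74 (permutation p of 0.00436, 0.0166 and 0.00193, adjusted 0.0139, 0.0484 and 0.00965), and rho was -0.73, -0.56 and -0.75, of which that of Gfra2 missed the threshold (adjusted 0.129). Gfra3 correlated most with the endothelial mean (r = 0.95, rho = 0.88, permutation p = 6e-05, adjusted 0.0021). Gfra1 and Gfra2 had r of 0.87 and 0.86 with the endothelial mean (permutation p of 0.00162 and 0.00088, adjusted 0.00945 and 0.0084, rho of 0.69 and 0.65). The rho of Gfra2 missed the threshold there (adjusted 0.0742). With the Schwann cell and nerve mean r of Gfra1, Gfra2 and Gfra3 was 0.76, 0.75 and 0.74 (permutation p of 0.0029, 0.00247 and 0.00335, adjusted 0.0113, 0.0108 and 0.0117). Their rho was 0.50, 0.50 and 0.55 and missed it (adjusted 0.129 to 0.215). Ret and Gfra4 had r of 0.36 and 0.38 with the follicular mean, and neither passed (permutation p of 0.332 and 0.376). With the C cell mean they had r of -0.18 and -0.28 (permutation p of 0.509 and 0.364). Within groups the r of Gfra4 with the C cell mean was 0.42 in homozygous tumours and, in the younger and the older heterozygous ones, 0.94 and -0.80 (unadjusted exact permutation p of 0.231, 0.00972 and 0.0722, n = 6 each). With the follicular mean as a covariate the age differences were -0.24 for Gfra1, -0.32 for Gfra2, 0.03 for Gfra3 and -0.14 for Nrtn, and 0 of the 7 genes were called (limma adjusted p of 0.43, 0.377, 0.976 and 0.469). With the C cell mean as a covariate they were -0.24, -0.51, 0.20 and -0.09, and again 0 were called (limma adjusted p of 0.814 to 0.937). In the third comparison the differences of Gfra1, Gfra2 and Gfra3 were 0.89, 0.42 and 0.16 with the follicular mean (limma adjusted p of 0.051, 0.343 and 0.813) and 1.19, 0.92 and 0.46 with the C cell mean (limma adjusted p of 0.137, 0.329 and 0.583). Both covariates differ between the ages themselves, and the part of the endothelial, Schwann cell, adipocyte and parathyroid genes in these falls was not tested. Without replicates 4 and 5 of the 18-month group, a check added after the values had been seen, the age differences were -1.84, -2.36 and -2.16 for Gfra1, Gfra2 and Gfra3.

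**Figure D4:**
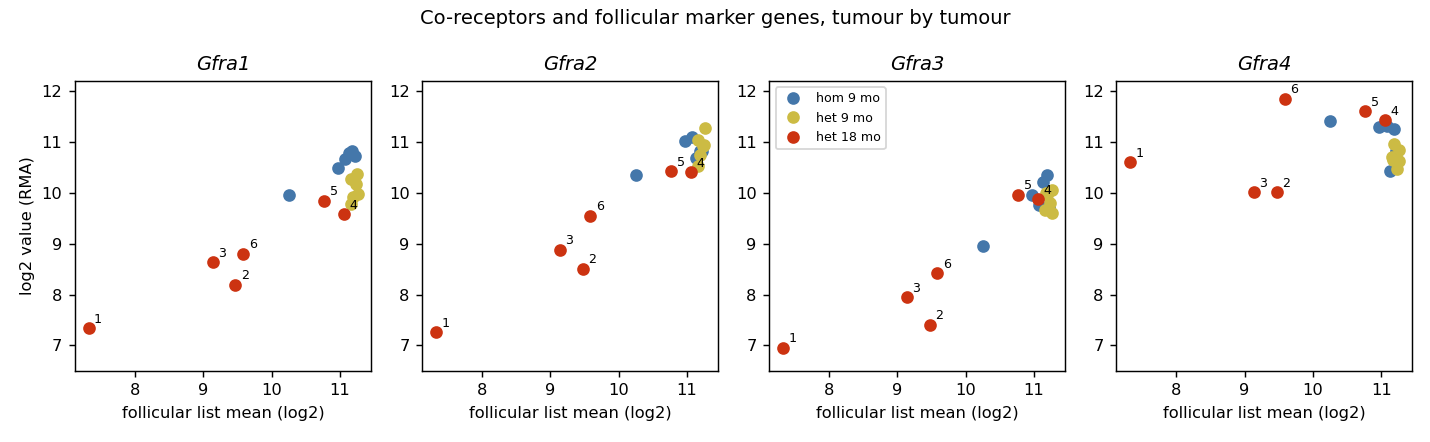
Log2 value of each co-receptor against the mean of 10 follicular marker genes in each tumour, coloured by group, with the 18-month tumours numbered by replicate. Gfra1, Gfra2 and Gfra3 rise along with the follicular mean (r of 0.89 to 0.93 as deviations from group means), while Gfra4 is high in replicate 6 and low in replicates 2 and 3 at follicular means of 9.14 to 9.59.

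The genes around Ret were read through lists of the pathway. With age 44.1% of all genes were called, 21.6% higher and 22.4% lower, which is the background of these counts. Of the other ligands and receptors of the family, Artn, the ligand of Gfra3, rose at 18 months by 0.24 (SE 0.06, limma adjusted p = 0.00712), from 7.01 ± 0.11 to 7.25 ± 0.12 (SD, n = 6 each). Like Gdnf and Nrtn, it lay below the array median in every tumour, with no call of detection. Pspn, the ligand of Gfra4, ran from 6.89 to 7.58 over the 9-month heterozygous tumours and from 7.01 to 7.39 at 18 months, and its difference of -0.07 (SE 0.12) did not pass (limma adjusted p = 0.656). Group means of Pspn (7.14 to 7.25) also lay below the array medians, with no call of detection. Gdf15, a distant relative that signals to Ret through Gfral, measured 8.25 ± 0.35 and 7.67 ± 0.60 (limma adjusted p = 0.11), and Gfral lay below the filter, at 4.77 or less in every tumour. Of 4 tested genes, for other binding partners of Gdnf, for sorting and the phosphatase gene Ptprf, 2 rose and 2 fell with age. Ncam1, an adhesion molecule that binds Gdnf together with Gfra1, rose by 1.61 (SE 0.28, limma adjusted p = 0.000585), from 9.38 ± 0.29 to 10.99 ± 0.59, without overlap. The heparan sulfate proteoglycan Sdc3, a further receptor of Gdnf, differed by 0.37, the phosphatase gene Ptprf by -0.21 and the sorting receptor gene Sort1 by -0.27 (SE 0.12, 0.08 and 0.11). The calls of Sdc3, Ptprf and Sort1 were lost without 3, 7 and 13 of the 18 arrays in turn.

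Downstream of the receptor, the lists moved in both directions with age. Of 24 tested adaptors and effectors 7 rose and 10 fell, with a median of 0.07, where 44.1% of all genes were called. Cblc, a ubiquitin ligase of receptor kinases, fell by 1.27 (SE 0.25), and Pik3r1, a regulatory subunit of PI3 kinase, fell by 0.91 (SE 0.17). The other regulatory subunit gene Pik3r2 rose by 0.35 (SE 0.06), and the adaptor gene Grb2 rose by 0.31 (SE 0.07). Of 10 Ras and MAP kinase genes 6 rose and 1 fell, with a median of 0.23, where 21.6% of all genes rose. The ribosomal S6 kinase gene Rps6ka2 rose by 1.39 (SE 0.26), the kinase gene Braf by 0.52 (SE 0.10) and its scaffold Ksr1 by 0.49 (SE 0.09), while Nras fell by 0.36 (SE 0.08). Of 11 genes of PI3 kinase and mTOR signalling 2 rose and 1 fell, the translation repressor Eif4ebp1 (-0.48, SE 0.11). The rises of Tsc1 (0.16) and Rptor (0.14) were lost without 9 and 10 of the 18 arrays in turn. Limma adjusted p-values of the genes named here ran from 0.000744 to 0.0465.

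Genes that Gdnf and Ret induce in the ureteric bud of the kidney, the best-known setting of this pathway, were all called with age, in both directions. Of the 7 tested, 3 rose and 4 fell, where 44.1% of all genes were called. The transcription factor genes Etv5 and Etv4 rose by 1.11 (SE 0.28) and 0.76 (SE 0.22), and the MAP kinase phosphatase gene Dusp6 by 0.72 (SE 0.19). Met, whose ligand is hepatocyte growth factor, fell by 1.19 (SE 0.23), the protease gene Mmp14 by 0.71 (SE 0.20), the feedback inhibitor gene Spry1 by 0.44 (SE 0.12) and the chemokine receptor gene Cxcr4 by 0.30 (SE 0.10). Etv4, Mmp14 and Cxcr4 were named after their values were seen. Limma adjusted p-values of these 7 ran from 0.00115 to 0.0231.

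Of 11 tested transcription factors tied to Ret expression 2 rose and 4 fell with age, a share near the 44.1% of all genes. The forkhead factor gene Foxa2 rose by 1.57 (SE 0.26) and the homeodomain gene Isl1 by 1.29 (SE 0.25), each without overlap between the ages. Sp1, whose protein binds GC boxes, fell by 0.45 (SE 0.09) and Nkx2-1, which C cells and follicular cells share, by 0.37 (SE 0.10), and limma adjusted p-values of these 4 ran from 0.000468 to 0.00598. The other falls, named after their values were seen, were Pax8, itself a follicular marker, and Gata3 (-1.81 and -1.83, limma adjusted p of 0.0125 and 0.0475). Ret, the gene these factors are tied to, was at 0.06. Of 25 other receptor tyrosine kinases 3 rose and 14 fell, with a median of -0.50, where 22.4% of all genes fell. Alk rose most, by 1.93 (SE 0.44, limma adjusted p = 0.00252), and Pdgfra, a fibroblast marker, fell by 1.14 (SE 0.21, limma adjusted p = 0.00092). With the follicular mean as a covariate 1 gene of all these lists, an adaptor, was called with age, and with the C cell mean 0 were.

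**Figure D5:**
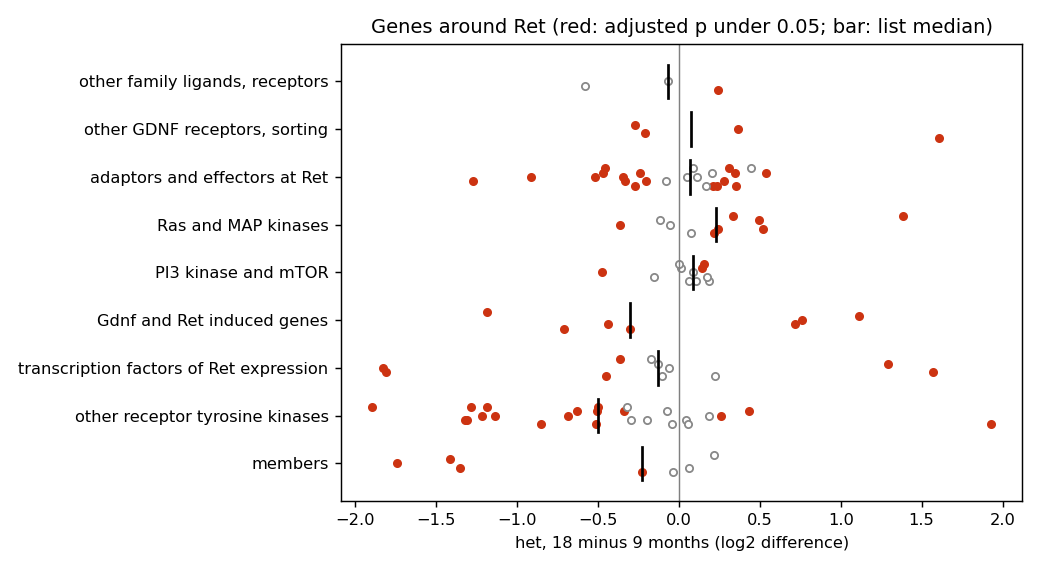
Age differences (18 minus 9 months, heterozygous, log2) of each tested gene in the lists around Ret and of the 7 genes themselves; filled points have an adjusted p under 0.05 and bars mark list medians. Medians run from -0.50 for other receptor tyrosine kinases to 0.23 for Ras and MAP kinases, and most lists hold filled points on both sides of 0.

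Between genotypes at 9 months 0 genes of these 8 lists were called by limma. The smallest p in each list belonged to Gab1, an adaptor of Ret (0.21, SE 0.06, limma adjusted p = 0.398), Rps6ka2 (0.65, SE 0.26), Ncam1 (0.62, SE 0.28), Foxa2 (0.61, SE 0.26), Met (-0.32, SE 0.23), Insr (0.12, SE 0.06), Rptor (0.12, SE 0.06) and Pspn (-0.11, SE 0.12). Ncam1 was at 0.39 and Met at -0.21 without homozygous replicate 3, and Pspn ran from -0.18 to -0.04 without each array in turn. With the C cell mean as a covariate Ncam1 was at 0.06, Rps6ka2 at 0.18, Foxa2 at 0.12, Gab1 at 0.13, Met at 0.07 and Pspn at -0.03. In the third comparison all 7 ureteric bud genes were called, 4 higher and 3 lower in homozygous tumours, where 29.8% of all genes were called, 16.2% higher and 13.6% lower. The adaptors had 8 higher and 1 lower of 24, the Ras and MAP kinase genes 1 and 4 of 10, and the other receptor tyrosine kinases 10 and 1 of 25. Artn differed by -0.26 (SE 0.06, limma adjusted p = 0.0118). With only these groups in the fit 0 of the ureteric bud genes were called, 4 of the adaptors, 1 of the Ras and MAP kinase genes and 1 of the other receptor tyrosine kinases. With the follicular or the C cell mean as a covariate 0 genes of the 8 lists were called there. These values share their arrays with the other comparisons.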

How the data were processed

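RNA of 18 tumours was measured on Affymetrix arrays. Total RNA from RNeasy columns, treated with DNase, was amplified with the Ovation PicoSL system and labelled with biotin, per the labels. The authors deposited log2 values. The submitters' processing notes name RMA and the program Affymetrix Expression Console, version 1.3.0.187, without order or role. Arrays have no read depth, and their number limits the precision.

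Of 29214 probe sets 15310 had 1 gene symbol, 323 several and 13581 none. The probe set with the highest mean stood for each of 14506 genes, and 11370 reached the 30th percentile of probe set means (6.32). One model with a mean for each of 3 groups was fitted on the 18 arrays with limma 3.58.1 in R 4.3.3 (lmFit, eBayes), two-sided, with Benjamini-Hochberg adjustment over 11370 genes and a threshold of 0.05. All SEs, 95% intervals and adjusted p-values of group differences are limma's. Other tests were permutations of tumours within groups (100000) or exact ones, written in Python 3.11.15 with numpy 2.4.6. Ranks came from scipy 1.17.1.

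The genes and lists were chosen with earlier results of these data known. From each pathway list up to 4 called genes with the smallest p per comparison could be named, or the 1 with the smallest p where none was called, and the 5 genes most like Ret and Gfra4 by r. Titles give the groups the same replicate numbers, while each array has an animal code of its own in the labels. Same-numbered tumours had deviations correlated between -0.29 and 0.35. Between the ages of the heterozygotes, 3 of 6 younger tumours correlated most with the older tumour of their own number. As the animal codes differ, the numbers were not taken to pair animals, and a block by replicate number was run as an alternative. Alternatives were other filters, the block, only the compared groups, array weights, median centring, a robust trended prior, quantile normalization, the mean over probe sets, marker means as covariates and leaving out each array. The fit was tested on simulated arrays.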

Additional observations from a re-analysis of the deposited data

Results flagged for a closer look

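In homozygous tumours at 9 months, replicate 1 stood apart for Nrtn, at 7.26 against 6.92 in the nearest of the other 5. The gap was 0.68 of the range of the group, above Dixon's 95% critical value for 6 samples. It was the only case among 21 groups checked (7 genes in 3 groups), and chance gives about 1 in 20 groups. The same tumour was lowest of its group for the endothelial (9.19), smooth muscle and pericyte (8.93), fibroblast (9.56), adipocyte (8.12) and macrophage (8.45) means. It was highest for the follicular (11.21), Schwann cell and nerve (7.28), autonomic neuron (6.70) and lymphocyte (5.99) means and for Gdnf (7.04). Its lead in the Schwann cell and nerve mean was small, with replicate 2 at 7.27. Over 18 tumours, as deviations from the group means, Nrtn had r = 0.12 with the endothelial mean (permutation p = 0.683). With the Schwann cell and nerve mean it had r = 0.49 (permutation p = 0.0687, adjusted 0.185 over 35 relations) and rho = 0.75 (permutation p = 0.00123, adjusted 0.0143).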

How the results depend on the processing

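The 7 genes had 624 differences under the alternatives. Of these 571 kept their direction and their side of the threshold, 34 changed sign and 19 kept their sign but lost the threshold. With 2 of those that changed sign, 21 lost the threshold in all, and 0 gained it. Many alternatives could not change a difference of these genes, only its adjusted p. These were the filters, the block, only the compared groups, the robust trended prior, and the mean over probe sets, as each gene had 1. Leaving out an array of the group not compared was another. The 571 therefore count many differences that were fixed in size and sign. Under the replicate block 4866 genes were called with age, 3433 in the third comparison and 0 between genotypes, and the same number of the 7 genes (4, 3 and 0) was called. Of the other genes named, Ptprf, Sort1 and Tsc1 lost their calls with age under the block (limma adjusted p of 0.0506, 0.0595 and 0.0716). This left 2 calls in the list of 4 genes that holds Ncam1, Sdc3, Sort1 and Ptprf. Gdnf and Nrtn were not tested with a filter at the 50th percentile.

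Genes called between genotypes numbered 24 with only the compared groups, 118 with array weights, 7 with the follicular covariate, 7 without replicates 4 and 5 of 18 months and 0 to 2 without each array in turn. With age 247 genes were called with the follicular and 0 with the C cell covariate, and 0 of the 7 with either, and in the third comparison 708 with only the compared groups, 0 with the follicular and 2 with the C cell covariate and 5392 without replicates 4 and 5 (2116 to 4702 without each array). There 1 of the 7 was called with only the compared groups, and 0 and 0 with the covariates.

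Signs changed for these differences. Between genotypes Gfra2 was 0.10 and 0.41 with the follicular and C cell covariates, Gfra3 0.18 with array weights and 0.19 and 0.65 with the covariates (-0.13 to 0.15 without each array), and Met 0.074 with the C cell covariate. With age Ret was -0.0018 with array weights and -0.030 without replicates 4 and 5 (-0.0079 to 0.13 without each array), Gfra4 -0.086 without replicates 4 and 5, Gfra3 0.026 and 0.20, Gdnf 0.022 and 0.040 (-0.079 to 0.0028 without each array), Ptprf 0.014 and 0.064 with the covariates, Sort1 0.024 with the follicular and Spry1 0.012 with the C cell covariate. In the third comparison Ret was -0.092 and -0.028 and Gfra4 -0.19 and -0.071 with the covariates, and Gdnf 0.0084 without replicates 4 and 5 (without each array Ret -0.036 to 0.099, Gfra4 -0.013 to 0.36 and Gdnf -0.039 to 0.036). The r of Ret was 0.0015 with Gdnf and 0.040 with Nrtn after quantile normalization, and 0.083 with Gdnf without 2 tumours (-0.18 to 0.12 with Gdnf and -0.20 to 0.10 with Nrtn without each array). The cause of these changes was not tested.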
